A study of Mus musculus with 26 samples.

Results

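The genes described here are 6 transcription factors of the primitive endoderm, Gata4, Gata6, Sox17, Sox7, Foxa2 and Hnf4a, and the surface receptor Pdgfra. They were listed by name for their known role in extraembryonic endoderm, and make up 7 of the 55291 gene symbols in each of 2 RNA-seq count tables. These genes and the marker lists used below were chosen with earlier results of these data known. Counts of them that passed a test are therefore a description and no independent support. All 7 passed edgeR's filter on low counts in both tables. The tables cover 26 libraries of mouse cells in 10 groups.

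Both experiments used E14 (E14TG2a) mouse embryonic stem cells (ESCs), kept in N2B27 medium with 3% serum, leukemia inhibitory factor, 3 µM of the GSK3 inhibitor CHIR99021 and 1 µM of the MEK inhibitor PD0325901. Neural progenitor cells (NPCs) were made by 2 days of culture on laminin in N2B27. The first table holds CTCF rescue lines in 4 groups of 2 libraries, named ESC-WT and NPC-WT for the WT rescue, and ESC-ΔZF1 and NPC-ΔZF1 for the mutant. In both rescue lines the endogenous CTCF carries an mAID-eGFP degron on both alleles, OsTIR1 is expressed from Rosa26, an mCherry reporter is present at Hb9, and a doxycycline-inducible Flag-Halo CTCF, either WT or lacking part of zinc finger 1 (ΔZF1), sits at Tigre. Cells of all 4 rescue groups, the WT groups included, received 1 µM 5-Ph-IAA to degrade the endogenous protein and 1 µg/ml doxycycline to express the rescue protein for 24 h. Each rescue line is 1 clone, so that the rescue protein and the clone cannot be told apart. The second table holds untreated E14 WT, Podxl pA and Grb10 pA cells, each as ESCs and as NPCs with 3 libraries per group. Podxl pA and Grb10 pA carry a homozygous eGFP cassette with an SV40 polyadenylation signal after the first coding exon of Podxl or Grb10, which ends the transcript early. They are edited clones, set beside the parental E14 cells. The early transcript end, the cassette, the loss of the protein and the clone cannot be told apart. The comparisons ask how the rescue protein, or the early end of either transcript, goes with gene expression in ESCs and in NPCs.

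In the mouse blastocyst, the inner cell mass divides into the epiblast, from which ESCs derive and which goes on to form the embryo including the neural lineage, and the primitive endoderm, which forms the visceral and parietal endoderm of the yolk sacs. FGF signalling through ERK favours primitive endoderm, and GATA6 is among its earliest factors, with PDGFRA, SOX17, GATA4 and SOX7 following. FOXA2 and HNF4A act in visceral endoderm, where HNF4A activates genes of secreted and lipid-carrying proteins. Several of these factors are also used outside the yolk sac, SOX17 and FOXA2 in definitive endoderm, FOXA2 in the floor plate, GATA4 and GATA6 in the heart, and PDGFRA in mesenchyme and oligodendrocyte precursors.

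On GRCm38 (mm10) with GENCODE M21 genes, Gata4 lies at chr14:63198922-63271692 on the minus strand and Sox7 at chr14:63943673-63950732 on the plus strand, 672.0 kb apart. Foxa2 lies at chr2:148042877-148046969 on the minus strand and Hnf4a at chr2:163506808-163572910 on the plus strand. Gata6 is the only member on its chromosome, as are Sox17 at chr1:4490931-4497354 on the minus strand and Pdgfra at chr5:75152292-75198215 on the plus strand. Counting took no account of strand, so reads of a gene and of one overlapping it on the other strand cannot be told apart. The 6 genes in the tables that overlap a member, Gm37587 at Sox17, Hnf4aos and Gm25881 at Hnf4a, and Gm42802, Gm42803 and Mir7025 at Pdgfra, had 0 to 4 counts in any library. Gata4 and Gata6 shared 0 words of 50 bases in their exons, and so did Sox17 and Sox7, so that reads of that length cannot match both genes of a pair.

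To show where motifs of the members' own factor families occur near their starts, promoter windows are given for the 3 members found in the RefSeq table of GRCm38.p6, as the 300 bases from 250 before to 50 after the first annotated start, on the strand of the gene. Capitals mark matches, on either strand, to GATAA (GATA factors), ACAAT (SOX factors) and TGTTTNC (forkhead factors).
Hnf4a, chr2:163506607-163506906, plus strand: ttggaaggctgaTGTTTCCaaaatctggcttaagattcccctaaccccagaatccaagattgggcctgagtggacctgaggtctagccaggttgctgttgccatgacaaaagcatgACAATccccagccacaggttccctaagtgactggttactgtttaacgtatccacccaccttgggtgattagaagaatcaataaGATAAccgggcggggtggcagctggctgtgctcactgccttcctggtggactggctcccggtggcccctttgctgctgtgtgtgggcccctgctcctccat
Foxa2, chr2:148046920-148047219, minus strand: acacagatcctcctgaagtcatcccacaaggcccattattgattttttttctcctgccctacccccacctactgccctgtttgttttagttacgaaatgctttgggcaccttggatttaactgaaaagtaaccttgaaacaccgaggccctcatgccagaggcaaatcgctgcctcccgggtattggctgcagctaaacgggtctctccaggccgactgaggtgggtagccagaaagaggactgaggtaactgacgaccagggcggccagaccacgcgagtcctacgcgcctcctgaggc
Pdgfra, chr5:75152001-75152300, plus strand: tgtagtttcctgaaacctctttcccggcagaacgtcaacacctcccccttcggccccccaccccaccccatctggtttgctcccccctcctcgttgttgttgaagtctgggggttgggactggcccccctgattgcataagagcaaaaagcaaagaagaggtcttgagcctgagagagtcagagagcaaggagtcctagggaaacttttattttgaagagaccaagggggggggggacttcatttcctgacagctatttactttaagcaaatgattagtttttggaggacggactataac
The Hnf4a window held 1 match to each motif, with the forkhead match starting at position −238, the SOX match at −134 and the GATA match at −51 from the start, while these windows of Foxa2 and Pdgfra held 0. At later annotated starts of Foxa2 and Hnf4a, the Foxa2 window at chr2:148045415-148045714 held 1 match to GATAA and the others held 0 matches. GATAA occurred in 25.4%, ACAAT in 31% and TGTTTNC in 20.5% of the 32851 promoter windows of this length, so that single matches are common.

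Counts on genes ranged from 6425179 to 28730435 per rescue library and from 1907505 to 8845087 per truncation library. The labelled edits were visible in the counts. Podxl stood at 20.8 to 24.3 CPM (counts scaled to TMM-adjusted library size) in NPCs of Podxl pA against 232.1 to 259.2 in E14 WT, and Grb10 at 52.2 to 59.4 in NPCs of Grb10 pA against 769 to 814.3. Summed CPM of 8 pluripotency genes were 3748 to 5766 in ESCs and 357.6 to 907 in NPCs. Of 10 neural progenitor genes, Hes5 and Fabp7 were at 0 counts in NPC-WT and in NPCs of Grb10 pA, and the summed level was 154.1 to 213.3 CPM in NPC-WT and 196.2 to 218.2 CPM in NPCs of E14 WT, against 85.1 to 95.3 and 138.6 to 183.4 CPM in the matching ESCs. It was likewise higher in NPC-ΔZF1 (170.2 to 173.4 CPM) than in ESC-ΔZF1 (87.8 to 93.6 CPM) and in NPCs (174.7 to 178 CPM) than in ESCs (128.4 to 147.8 CPM) of Podxl pA, but in Grb10 pA it overlapped, at 130 to 148.3 CPM in NPCs and 133.9 to 162.6 CPM in ESCs. The 2 NPC-WT libraries were the most unlike replicate pair, with a chi-square per degree of freedom of 55 against 1.65 for the most alike of 22 pairs. CPM compares a gene between libraries of 1 table, and levels of different genes are given as CPM per kb of exon.

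ESCs expressed the 7 genes at low levels. Their summed level was 13.5 to 20.8 CPM in the ESC rescue libraries and 12.3 to 17.5 CPM in those of the truncation experiment. Per kb, Gata4 was the highest in ESC-WT at 1.42 CPM per kb (range 1.09 to 1.76), followed by Hnf4a at 0.548 CPM per kb (0.527 to 0.57), and the 2 did not overlap. Gata6, Pdgfra and Sox17 lay between 0.334 and 0.363 CPM per kb with overlapping libraries. Foxa2, the pioneer factor that opens chromatin at endoderm genes, was last in every ESC group, and was at 0 counts in 5 of the 9 ESC libraries of the truncation experiment. The order in NPCs was different. Gata4 led in NPC-WT at 3.66 CPM per kb and in NPC-ΔZF1 at 19.9 CPM per kb, while Hnf4a was last in every NPC group, at 0.12 CPM per kb in NPC-WT and 1.71 CPM per kb in NPC-ΔZF1. In NPCs of E14 WT, Sox7 (8.25 CPM per kb), Gata4 (8.23) and Gata6 (7.64) overlapped with each other. Sox17 was at 9.89 CPM per kb in NPC-ΔZF1, overlapping Pdgfra (9.61) and well above Hnf4a. In NPCs of E14 WT, Podxl pA and Grb10 pA it was at 1.71, 2.93 and 1.49 CPM per kb, and its libraries overlapped those of Hnf4a.

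**Figure D1:**
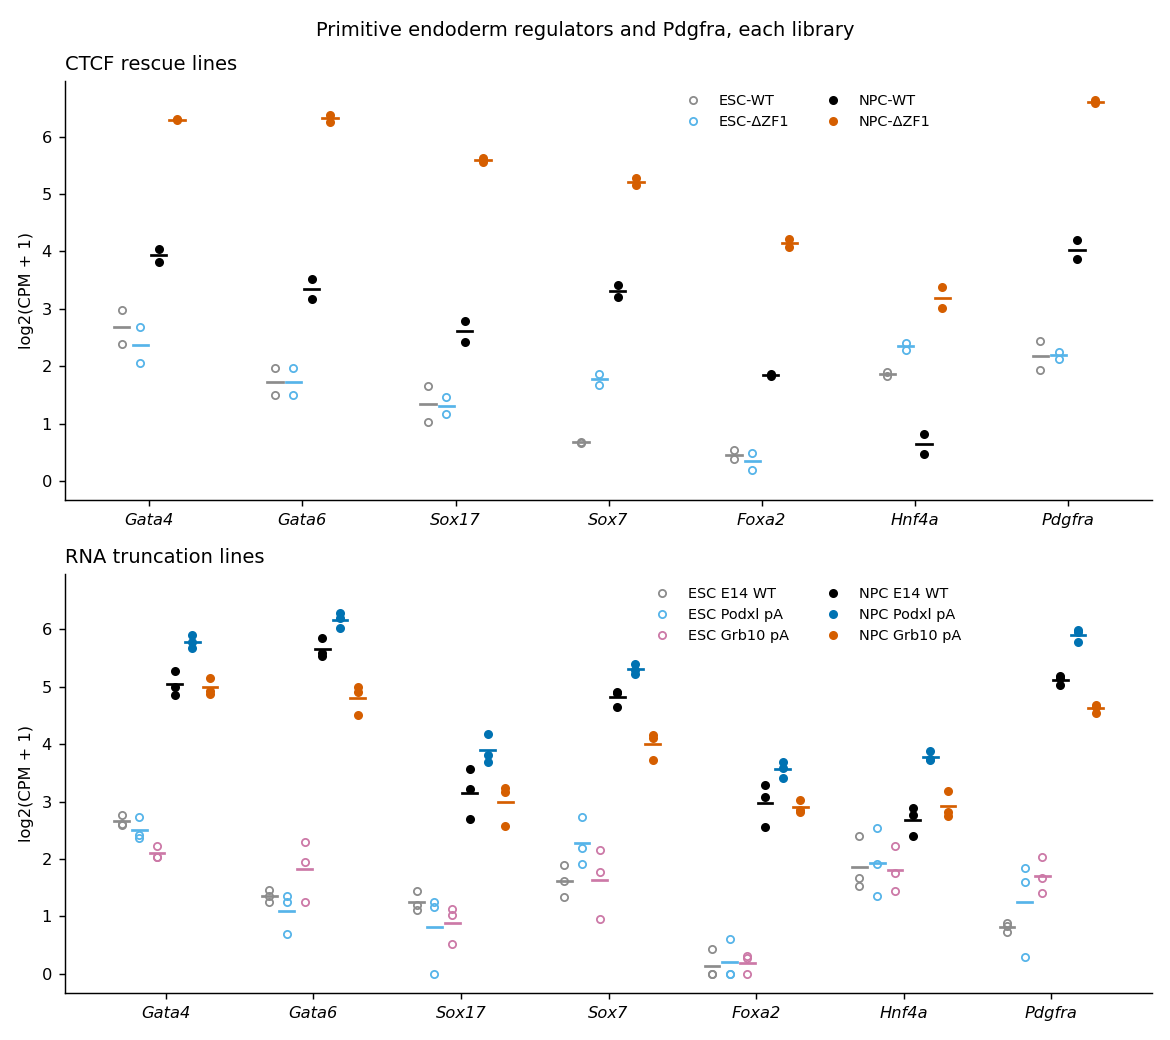
Level of each member in every library, as log2(CPM + 1), in the 10 groups. Open points are ESC libraries, filled points are NPC libraries, and bars are group means. For Gata4, the 2 libraries of NPC-ΔZF1 sit at 76.9 and 78.2 CPM, above NPC-WT at 13.1 and 15.6 CPM.

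**Figure D2:**
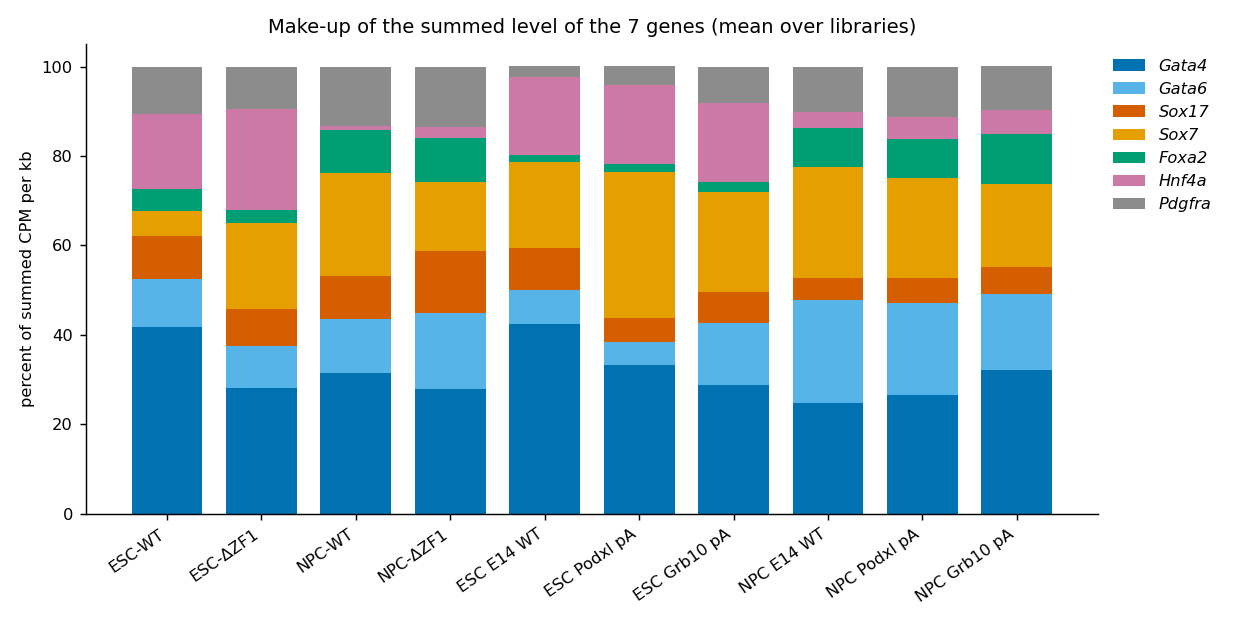
Share of each member in the summed CPM per kb of the 7 genes, in percent, as the mean over the libraries of each group. Hnf4a takes 16.7% in ESC-WT and 1.01% in NPC-WT, and Sox7 takes 5.55% in ESC-WT and 19.3% in ESC-ΔZF1.

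In NPCs compared with ESCs of the same cells, the GATA, SOX and FOX factors and Pdgfra were higher in every line. In the rescue lines, 6 of the 7 members were up-regulated in NPC-WT over ESC-WT, where 22% of the 16641 genes tested were up-regulated, and Hnf4a was down-regulated, where 19.9% were. All 7 were up-regulated in NPC-ΔZF1 relative to ESC-ΔZF1 (20.4% of genes up-regulated) and in NPCs of E14 WT, Podxl pA and Grb10 pA (16.5%, 17.1% and 17.2% of 13268 genes tested). The libraries of ESCs and NPCs did not overlap for any member in these 5 comparisons, which also held for 52.8% to 80.7% of all genes tested. Up-regulated here means that edgeR's quasi-likelihood test, adjusted by Benjamini-Hochberg over all genes tested, gave a p of 0.05 or less with a rise of 0.5 or more on the log2 scale, and down-regulated the same in the other direction. Median log2 fold changes over the members were 2.04 in the WT rescue line, 4.76 in the ΔZF1 rescue line, and 3.76, 3.65 and 3.20 in E14 WT, Podxl pA and Grb10 pA, against −0.0206 to 0.0192 over all genes.

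Gata6 rose by 2.04 on the log2 scale in NPC-WT relative to ESC-WT (SE 0.287, edgeR adjusted p = 0.000207), by 4.98 in E14 WT and by 3.20 in Grb10 pA. Pdgfra rose by 2.18 in the WT rescue line (SE 0.229, edgeR adjusted p = 3.52e-05), 5.41 in E14 WT and 3.40 in Grb10 pA. Foxa2 had 2, 1 and 2 counts in all ESC libraries of E14 WT, Podxl pA and Grb10 pA together, so its fold is given from the counts. It was 48.5 times as high in NPCs as in ESCs of E14 WT (95% counting interval 13.1 to 406), 137 times in Podxl pA (24.2 to 5430) and 37.9 times in Grb10 pA (10.3 to 316). Hnf4a fell in the WT rescue line and rose in the other 4 lines. It was at 2.75 and 2.54 CPM in ESC-WT and at 0.381 and 0.773 CPM in NPC-WT (log2 fold change −2.31, SE 0.414, edgeR adjusted p = 0.000869), and in E14 WT it was at 2.18, 1.88 and 4.27 CPM in ESCs and 5.83, 4.28 and 6.4 CPM in NPCs (log2 fold change 1.07, SE 0.358, edgeR adjusted p = 0.0141). The highest ESC library and the lowest NPC library of E14 WT were close, at 4.27 and 4.28 CPM, and the Hnf4a call in E14 WT did not hold without the first or the second ESC library (edgeR adjusted p = 0.0525 and 0.107). The tables were normalized separately and the difference between them was not tested. In bulk RNA, fewer cells of a type and less RNA per cell cannot be told apart, here and in each comparison that follows.

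All 7 members were up-regulated in NPC-ΔZF1 relative to NPC-WT, against 7.19% of the 16641 genes tested. That share is not fixed, since the number of all genes called changed widely with which NPC library was left out. Both NPC-ΔZF1 libraries were above both NPC-WT libraries for each member, as they were for 30.1% of all genes tested, and the median log2 fold change over the members was 2.68, against −0.00262 over all genes. The summed level of the members was 51.7 to 60.8 CPM in NPC-WT and 356.9 to 365.3 CPM in NPC-ΔZF1. With each of the 4 NPC libraries left out in turn, all 7 remained up-regulated.

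Gata4, a zinc finger factor of the GATA family, was at 13.1 and 15.6 CPM in NPC-WT and 78.2 and 76.9 CPM in NPC-ΔZF1. Gata6, its partner and the earlier of the pair in primitive endoderm, lies at chr18:11052064-11085635 on the plus strand and was at 8.01 and 10.4 CPM in NPC-WT and 82.3 and 75.6 CPM in NPC-ΔZF1. The gap between the groups was many times that between replicates for both. The log2 fold change was 2.45 for Gata4 (SE 0.21, edgeR adjusted p = 0.000146) and 3.12 for Gata6 (SE 0.193, edgeR adjusted p = 2.33e-05). The paralogs Gata2 and Gata3, which act in trophoblast and blood, had log2 fold changes of −1.21 and −0.68 (edgeR adjusted p = 0.000407 and 0.0122).

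Sox17, a SOX factor of the F subgroup that cooperates with POU factors at endoderm genes, was at 5.93 and 4.38 CPM in NPC-WT and 48.1 and 46.3 CPM in NPC-ΔZF1. Sox7, of the same subgroup, was at 8.18 and 9.63 CPM in NPC-WT and 37.7 and 34.5 CPM in NPC-ΔZF1. The levels of the 2 genes per kb were 1.08 and 2.70 CPM per kb in NPC-WT and 9.89 and 11 CPM per kb in NPC-ΔZF1, so that Sox7 was ahead in both groups, with libraries apart from those of Sox17 in each. The log2 fold change was 3.16 for Sox17 (SE 0.212, edgeR adjusted p = 3.32e-05) and 2.03 for Sox7 (SE 0.151, edgeR adjusted p = 5.78e-05).

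Foxa2 was at 2.63 and 2.58 CPM in NPC-WT and 17.6 and 15.8 CPM in NPC-ΔZF1 (log2 fold change 2.68, SE 0.215, edgeR adjusted p = 8.1e-05). Hnf4a, a nuclear receptor, was at 0.381 and 0.773 CPM in NPC-WT, which is 9 counts in each library, and at 7.08 and 9.38 CPM in NPC-ΔZF1. Its log2 fold change of 3.96 (SE 0.377, edgeR adjusted p = 9.34e-05) was the greatest among the 7, from the lowest starting level, and it ranged from 3.39 to 4.39 with a library left out. Among paralogs, Foxa1 rose by 1.53 (SE 0.26, edgeR adjusted p = 0.00305) and Foxa3 fell by 1.47 (SE 0.299, edgeR adjusted p = 0.00769) on the log2 scale, while Hnf4g was at 0 counts in NPC-WT.

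Pdgfra, the receptor tyrosine kinase for PDGF that marks primitive endoderm cells, was at 13.5 and 17.5 CPM in NPC-WT and 94.4 and 98.3 CPM in NPC-ΔZF1. Its log2 fold change was 2.65 (SE 0.166, edgeR adjusted p = 2.39e-05). Of the 4 PDGF ligand genes, 0 were up-regulated, Pdgfb fell by 1.18 (SE 0.205, edgeR adjusted p = 0.00402), the other 3 did not pass the test, and the summed level of the 4 was 67.2 to 88.6 CPM in NPC-WT and 56.3 to 60.1 CPM in NPC-ΔZF1.

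**Figure D3:**
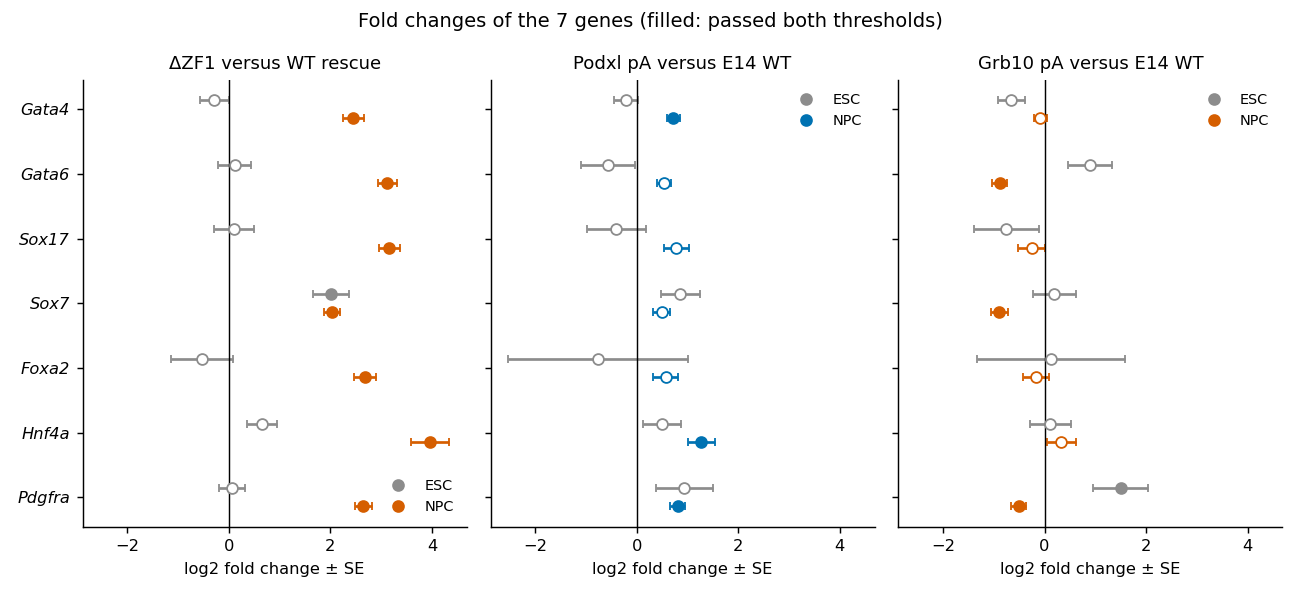
Log2 fold change of each member with its standard error, in 3 panels for ΔZF1 against WT rescue, Podxl pA against E14 WT and Grb10 pA against E14 WT. Grey points are ESCs, coloured points are NPCs, and filled points passed both thresholds. In NPC-ΔZF1 all 7 points are filled and lie between 2.03 and 3.96, and in NPCs of Grb10 pA the 3 filled points lie below 0.

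Other genes of extraembryonic endoderm were higher in NPC-ΔZF1 too. Of 12 visceral endoderm markers tested, 9 were up-regulated and 0 down-regulated, with a median log2 fold change of 2.01. They included the carrier protein gene Ttr (4.12), Apob of lipoproteins (3.80) and Cubn, an uptake receptor of visceral endoderm (3.61), and the smallest rise was that of Cited1 (0.705). Of 13 parietal endoderm and basement membrane genes, 10 were up-regulated and 0 down-regulated, with a median of 1.69. Among them were Srgn (3.55), the laminin chain gene Lama1 (2.99), the plasminogen activator gene Plat (2.27) and Snai1 (0.839). Of 14 partners and other regulators of extraembryonic endoderm, 6 rose and 0 fell, with a median of 0.547, including Dab2 (2.95), an adaptor for endocytosis. Of 11 genes of FGF and ERK signalling, 7 rose and 0 fell, with a median of 1.10, among them the ligand genes Fgf8 (3.27) and Fgf5 (2.49) and the ERK feedback gene Spry4 (2.37). Of 4 of the 7 floor plate genes that were tested, 0 passed the test, and Shh was at 0 counts in NPC-WT.

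The members have roles in other cell types as well, and the markers of those were counted beside them. Some genes, such as Foxa1, Eomes and Hand1, stand in more than 1 list, so the counts of the lists are not separate. Over all genes, 10.5% fell in this comparison. Of 9 definitive endoderm and primitive streak genes, 4 rose and 0 fell, Foxa1 (1.53), Nodal (1.48), Sp5 (1.41) and Eomes (1.15), from a summed 27.3 to 31.5 CPM in NPC-WT to 66.8 to 67.0 CPM in NPC-ΔZF1. Of 6 cardiac genes tested, 0 rose and 2 fell, Actc1 and Hand1 both by 1.15 on the log2 scale. Kdr fell by 0.987 and was the 1 call among 7 endothelial and blood genes. Of 6 trophoblast genes, 4 fell and 1 rose, and the summed level was 355.7 to 393 CPM in NPC-WT and 222.8 to 226.2 CPM in NPC-ΔZF1. Among 6 neural crest, mesenchyme and oligodendrocyte precursor genes, Twist1 (0.957) and Tfap2a (0.559) rose and Cspg4 fell by 1.65. Pluripotency genes summed to 357.6 to 530.2 CPM in NPC-WT and 441.1 to 455.6 CPM in NPC-ΔZF1, and 1 of 8, Dppa3, fell by 0.924, while among 8 neural progenitor genes 3 rose, Olig3 by 1.91, Sox1 by 1.05 and Zfp521 by 0.813, and Nes fell by 0.846. Ctcf RNA itself was at 448.7 to 474.5 CPM in NPC-WT and 785.2 to 798.2 CPM in NPC-ΔZF1. These counts do not separate RNA of the endogenous gene from RNA of the rescue gene. At the protein level, the paper's western blot gave similar amounts of Flag-Halo-CTCF in the WT and mutant rescue lines. The part of these markers and of the Ctcf level in the result was not tested.

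**Figure D4:**
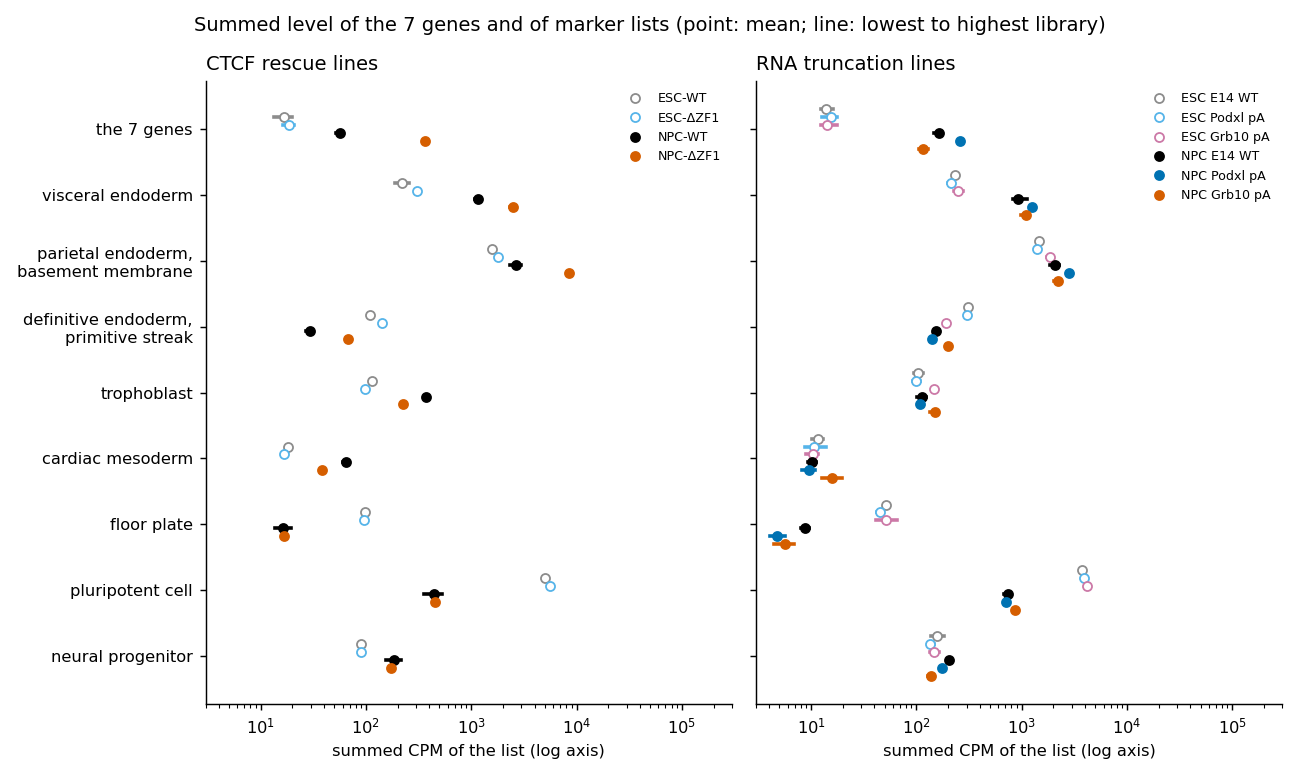
Summed CPM, on a log axis, of the members and of marker lists in each group of the 2 tables. Points are means over libraries and lines run from the lowest to the highest library. Parietal endoderm and basement membrane genes sum to 2326 to 2981 CPM in NPC-WT and 8416 to 8487 CPM in NPC-ΔZF1, and pluripotency genes overlap between these groups.

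In ESCs, 1 member, Sox7, was up-regulated in ESC-ΔZF1 relative to ESC-WT, where 1.29% of genes were. Sox7 was at 0.611 and 0.587 CPM in ESC-WT, from 4 and 9 counts, and at 2.20 and 2.63 CPM in ESC-ΔZF1, from 30 and 39 counts. The groups did not overlap, and the log2 fold change was 2.01 (SE 0.353, edgeR adjusted p = 0.0154). The call did not hold with any 1 of the 4 ESC libraries left out (edgeR adjusted p = 0.0928 to 0.202 for Sox7, log2 fold change 1.91 to 2.14), where 8 to 21 genes in all were called, against 601 with both libraries of each group. Hnf4a was at 2.75 and 2.54 CPM in ESC-WT and 3.89 and 4.32 CPM in ESC-ΔZF1, also without overlap, but its log2 fold change of 0.649 did not pass the test (edgeR adjusted p = 0.281, 95% interval −0.01 to 1.31). Over all genes tested, 27.5% were likewise higher in both ESC-ΔZF1 libraries, and 57.4% were apart in either direction, so that such a separation is common here. For the other 5 members the libraries overlapped. Their log2 fold changes were −0.28 for Gata4, 0.12 for Gata6, 0.10 for Sox17, −0.53 for Foxa2 and 0.07 for Pdgfra. The median over the 7 was 0.10, against −0.00566 over all genes. Among 4 PDGF ligands, Pdgfc (0.805) and Pdgfa (0.732) rose in ESC-ΔZF1. Of 12 visceral endoderm markers tested, Apoe (1.504) and Apom (1.44) rose, and of 14 partners Nr2f2 (1.39) and Eomes (1.00) did. In these 3 lists 0 genes fell. Of 11 FGF and ERK genes 0 rose and 1 fell, and of 8 pluripotency genes 0 rose and 1 fell. The FGF and ERK list and the pluripotency list share a gene, so these falls need not be of different genes. Over all genes, 214 of the 601 called were up-regulated and the rest down-regulated. As given above, few genes of any kind were called with a library left out. Ctcf RNA, again of the endogenous and rescue genes together, was at 831.2 to 860 CPM in ESC-ΔZF1 against 562.1 to 577.2 CPM in ESC-WT. Its part in these values was not tested.

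The ΔZF1 effect in NPCs was compared with that in ESCs in the same model. It was greater in NPCs for 6 of 7 members, where 1.59% of genes passed in that direction. The number of all genes passing this test changed widely with which library was left out. For Gata6, the difference between the log2 fold changes was 3.00 (SE 0.379, edgeR adjusted p = 0.00572), and for Pdgfra it was 2.58 (SE 0.307, edgeR adjusted p = 0.00418). These calls held with any library left out for Gata4, Gata6 and Pdgfra. That of Foxa2 (difference 3.21, edgeR adjusted p = 0.035) was lost in 6 of 8 such fits, that of Sox17 (3.06) without the first library of ESC-WT or of ESC-ΔZF1, and that of Hnf4a (3.31) without the second of ESC-WT or the first of ESC-ΔZF1. Sox7 was the exception, with a difference of 0.02 (edgeR adjusted p = 0.998, 95% interval −0.84 to 0.875) that holds differences of either sign. Hnf4a differed from the other members in another way, since it was lower in NPC-WT than in ESC-WT but at 8.23 ± 1.62 CPM (SD, n = 2) in NPC-ΔZF1 against 4.11 ± 0.304 CPM (SD, n = 2) in ESC-ΔZF1 (log2 fold change 1.00, SE 0.24, edgeR adjusted p = 0.00698). That call of Hnf4a was lost without the first ESC-ΔZF1 or the second NPC-ΔZF1 library (edgeR adjusted p = 0.068 and 0.0868). The comparisons within NPCs and within the WT line share the NPC-WT libraries.

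Most genes next to the members were not called. Of the 14 nearest tested genes, 1 on each side of each member, 3 were up-regulated and 1 down-regulated in NPC-ΔZF1 relative to NPC-WT, with a median log2 fold change of 0.211. Over all genes tested, 7.19% were up-regulated and 10.5% down-regulated, and whether the neighbours differ from that was not tested. The noncoding gene 9030622O22Rik, 2.67 kb from Foxa2, was among those that rose, by 3.02 (SE 0.743, edgeR adjusted p = 0.0102). Next to Gata4, Neil2 at 5.07 kb had a log2 fold change of −0.35 (edgeR adjusted p = 0.423), and next to Hnf4a, R3hdml at 4.2 kb had 1.51 (edgeR adjusted p = 0.0876). Of the 6 tested genes between Gata4 and Sox7, 0 rose and 1, Fam167a, fell by 0.905. The 5 chromosomes that carry members had median log2 fold changes of −0.00216 to 0.108 over all their tested genes.

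The genes most like the mean standardized profile of the members over the 8 rescue libraries were Ank (Pearson r 0.998), Lrpap1 (0.994), Fbp2 (0.993), Slc39a8 (0.993) and Stard8 (0.993), among 10575 genes that averaged 100 or more normalized counts. Slc39a8, a zinc transporter gene, was at 4.71 ± 0.587 CPM (SD, n = 2) in NPC-WT and 39.8 ± 0.454 CPM (SD, n = 2) in NPC-ΔZF1. Over the 18 truncation libraries they were Col4a2 (0.99), Flrt3 (0.988), Col4a1 (0.985), Amot (0.984) and Dnmt3b (0.983), among 7430 genes. Col4a1 and Col4a2 encode the collagen chains of basement membranes. Both sets of libraries fall into ESCs and NPCs, which the points of these correlations share. Among the members, Hnf4a went least with the rest over the rescue libraries, with r of 0.195 to 0.362 to the other 6, and 0.809 to 0.86 over the truncation libraries, while the other pairs were at 0.9 to 0.996 and 0.855 to 0.98.

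In NPCs of Podxl pA, all 3 libraries were above all 3 libraries of E14 WT for each of the 7 members, as they were for 10.6% of all genes tested, and 3 members, Gata4, Hnf4a and Pdgfra, were up-regulated, where 0.384% of 13268 genes tested were. The median log2 fold change over the members was 0.722, against −0.00115 over all genes, and the summed level was 250.8 to 267.6 CPM in Podxl pA and 146.9 to 176.3 CPM in E14 WT. At an unadjusted p under 0.05, 7 of 7 members and 10.2% of all genes tested passed.

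Gata4 was at 27.8, 37.6 and 31.0 CPM in E14 WT and 58.6, 54.0 and 50.02 CPM in Podxl pA (log2 fold change 0.72, SE 0.124, edgeR adjusted p = 0.00248). Gata6 was at 47.3, 45.2 and 56.6 CPM in E14 WT and 63.7, 72.7 and 76.5 CPM in Podxl pA, and its log2 fold change of 0.53 did not pass (SE 0.137, edgeR adjusted p = 0.0811). The Gata6 libraries nearest each other, 56.6 and 63.7 CPM, lay closer together than the lowest and highest library within either group. Sox17 was at 5.50, 8.25 and 10.8 CPM in E14 WT and 13.1, 11.9 and 17.0 CPM in Podxl pA (log2 fold change 0.784, SE 0.252, edgeR adjusted p = 0.195). Sox7 was at 24.0, 29.0 and 28.65 CPM in E14 WT and 38.0, 36.1 and 41.2 CPM in Podxl pA (log2 fold change 0.49, SE 0.161, edgeR adjusted p = 0.216).

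Foxa2 was at 4.86, 8.71 and 7.42 CPM in E14 WT and 11.1, 11.9 and 9.67 CPM in Podxl pA (log2 fold change 0.571, SE 0.247, edgeR adjusted p = 0.409). Hnf4a was at 5.83, 4.28 and 6.40 CPM in E14 WT and 12.3, 13.7 and 12.2 CPM in Podxl pA, which was the greatest of the 7 log2 fold changes at 1.27 (SE 0.265, edgeR adjusted p = 0.0117). Pdgfra was at 31.7, 34.4 and 35.4 CPM in E14 WT and 54.0, 62.1 and 61.0 CPM in Podxl pA (log2 fold change 0.80, SE 0.142, edgeR adjusted p = 0.00286). The call of Hnf4a did not hold without the second E14 WT library (log2 fold change 1.06, edgeR adjusted p = 0.181) or the second of Podxl pA (1.21, edgeR adjusted p = 0.0854). With only these 2 groups fitted, Gata6 and Sox17 passed as well (edgeR adjusted p = 0.0016 and 0.0411). The 3 called members were a GATA factor, the nuclear receptor and the surface receptor, and the SOX factors, Gata6 and Foxa2 did not pass after adjustment. Sox17, not called, had a greater log2 fold change (0.784) than Gata4 (0.722), and differences between members were not tested. In ESCs of Podxl pA, edgeR called 0 of 7 members (0.339% of genes in either direction) and DESeq2 called 0, with 1 member, Sox7, at an unadjusted p under 0.05 (log2 fold change 0.86, edgeR adjusted p = 0.473). The difference between the Podxl pA effect in NPCs and in ESCs likewise passed for 0 members by either tool (0.098% of genes in either direction), with Gata4 at an unadjusted p under 0.05 (difference 0.934, edgeR adjusted p = 0.198). Sox17 had 0 counts in 1 ESC library of Podxl pA, where 3 counts would be 1.55 CPM.

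Beside the members, 3 of 10 visceral endoderm markers tested rose in NPCs of Podxl pA, Apob (1.05), Cubn (1.02) and Cited1 (0.588), 0 fell, and the median was 0.613. Of 12 parietal endoderm and basement membrane genes, 5 rose and 0 fell, including Srgn (1.17), Col4a2 (0.588), Col4a1 (0.587) and Lama1 (0.568), with a median of 0.331. Of 12 partners, 2 rose and 0 fell, Dab2 (1.04) among those that rose. FGF and ERK genes gave 0 calls of 11 and PDGF ligands 0 of 3. Over all genes, 0.166% fell in this comparison. Among markers of other cell types, Trh fell by 0.714, Ntn1 by 1.56 and the neural factor Sox1 by 0.633 on the log2 scale, and 0 of 8 pluripotency genes passed. The neural progenitor sum was 174.7 to 178 CPM in Podxl pA and 196.2 to 218.2 CPM in E14 WT, and its part in the result was not tested. Of the 13 genes nearest the members, 0 were called.

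In NPCs of Grb10 pA, Gata6, Sox7 and Pdgfra were down-regulated, where 8.64% of genes were, and the other 4 members overlapped with E14 WT. Of all genes tested, 21.7% were lower in all Grb10 pA libraries and 43.6% were apart in either direction, so that separation alone is common here. The median over the members was −0.253, against 0.00806 over all genes. Gata6 was at 21.6, 29.2 and 30.8 CPM in Grb10 pA, each below the lowest E14 WT library at 45.2 CPM, and had a log2 fold change of −0.88 (SE 0.146, edgeR adjusted p = 6.09e-05). Sox7 was at 12.3, 16.2 and 16.8 CPM against at least 24.0 CPM in E14 WT (log2 fold change −0.89, SE 0.174, edgeR adjusted p = 0.000372). Pdgfra was at 24.8, 22.2 and 23.9 CPM against at least 31.7 CPM (log2 fold change −0.51, SE 0.151, edgeR adjusted p = 0.0123). The Pdgfra change is close to the threshold of 0.5, and it was −0.47 to −0.5 and not called without the filter on low counts, with a replicate block, or without replicate 2 or 3 of E14 WT or replicate 2 of Grb10 pA.

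Gata4, the partner of Gata6, was at 29.5, 28.4 and 34.7 CPM in NPCs of Grb10 pA, within the range of E14 WT of 27.8 to 37.6 CPM, and its log2 fold change was −0.08 with a 95% interval of −0.34 to 0.179. Sox17 was at 4.95, 7.98 and 8.38 CPM (log2 fold change −0.25, interval −0.8 to 0.297), Foxa2 at 6.08, 6.23 and 7.18 CPM (−0.17, interval −0.7 to 0.362) and Hnf4a at 6.08, 5.73 and 8.04 CPM (0.33, interval −0.24 to 0.905). The intervals of Sox17, Foxa2 and Hnf4a are wide enough to hold changes past the threshold of 0.5. In ESCs of Grb10 pA, 1 member, Pdgfra, was up-regulated, where 4.51% of genes were. It was at 2.16, 3.11 and 1.66 CPM against 0.654, 0.856 and 0.777 CPM in E14 WT, from 10 counts in all 3 E14 WT libraries, with a log2 fold change of 1.498 (SE 0.536, edgeR adjusted p = 0.0403). That call of Pdgfra did not hold without the filter on low counts (edgeR adjusted p = 0.0618), or with any of 5 of the 6 ESC libraries left out, the exception being the third of Grb10 pA (edgeR adjusted p = 0.0379). Gata4 was at 3.68, 3.11 and 3.08 CPM in ESCs of Grb10 pA, below all 3 libraries of E14 WT at 5.01 to 5.83 CPM, but did not pass (log2 fold change −0.66, edgeR adjusted p = 0.102). Of all genes tested, 13.3% were likewise lower in all ESC libraries of Grb10 pA. The Grb10 pA effect was lower in NPCs than in ESCs for 2 members, where 3.04% of genes passed in that direction. The difference was −1.77 for Gata6 (SE 0.454, edgeR adjusted p = 0.0152) and −2.01 for Pdgfra (SE 0.556, edgeR adjusted p = 0.0187). Gata6 did not pass without the second ESC library of E14 WT or the first of Grb10 pA (−1.65 and −1.41), and Pdgfra did not without the first of E14 WT or the second of Grb10 pA (−1.9 and −1.79).

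The lists around the members were split in NPCs of Grb10 pA, where 7.9% of all genes rose. Of 10 visceral endoderm markers, Apoe (0.968) and Soat2 (0.672), both of lipid handling, rose and 0 fell. Of 12 parietal endoderm and basement membrane genes, 3 fell, Pth1r by 0.915, Col4a1 by 0.68 and Col4a2 by 0.536, and Nid2 rose by 0.808. Among 12 partners, Eomes (1.01) and Otx2 (0.86) rose and Zfpm1, a cofactor of GATA proteins, fell by 0.798. The ERK feedback genes Spry2 and Spry4 fell by 0.904 and 0.822 among 11 FGF and ERK genes. Pdgfc, a ligand of PDGFRA, fell by 1.85 (SE 0.502, edgeR adjusted p = 0.00422), and the paralog Pdgfrb rose by 1.21 (SE 0.189, edgeR adjusted p = 1.7e-05). The summed level of the PDGF ligand genes overlapped, at 12.9 to 17.7 CPM in NPCs of Grb10 pA and 15.2 to 17.3 CPM in E14 WT. Of 8 neural progenitor genes, 5 fell, led by Olig3 (−2.07), Sox1 (−1.66) and Nes (−1.4), and the list summed to 130 to 148.3 CPM against 196.2 to 218.2 CPM in E14 WT. Pluripotency genes summed to 835.2 to 907 CPM against 683.6 to 781.9 CPM, and Ctcf was at 154.9 to 161 CPM against 210.6 to 218.5 CPM. The part of these in the members' levels was not tested.

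Podxl pA and Grb10 pA share the E14 WT libraries, so that their fold changes are given side by side only. Gata6 stood at 71 ± 6.56 CPM in NPCs of Podxl pA, 49.7 ± 6.08 CPM in E14 WT and 27.2 ± 4.9 CPM in Grb10 pA (SD, n = 3 each). Pdgfra stood at 59 ± 4.42, 33.8 ± 1.9 and 23.6 ± 1.31 CPM and Sox7 at 38.5 ± 2.55, 27.2 ± 2.83 and 15.1 ± 2.45 CPM in the same order. Hnf4a was at 12.8 ± 0.862 CPM in Podxl pA, and at 5.5 ± 1.1 and 6.62 ± 1.24 CPM in E14 WT and Grb10 pA, which overlapped.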

How the data were processed

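The authors mapped 2 × 50-base reads of rRNA-depleted RNA from 26 libraries to mm10 (STAR, default settings) and assigned them to genes by featureCounts within the sns pipeline. Deposited were raw whole-number counts per gene, taken without regard to strand, and the annotation is not given in the sources used here. A further 3 columns match no sample and were not used. Groups came from the labels, and line details also from the methods of the study, which calls the replicates biological.

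A model of all groups was fitted to each table with edgeR 4.0.16 (R 4.3.3), with TMM factors, filterByExpr and the quasi-likelihood F test. Calls needed a Benjamini-Hochberg adjusted p ≤ 0.05 over the 16641 or 13268 genes tested and a log2 change ≥ 0.5. SE is a Wald standard error from the fitted weights and quasi-dispersion. Likeness was Pearson's r to the mean profile of the members in log2 CPM (prior count 2). Intervals of count ratios cover counting error only, and 3 counts, the limit set for a count of 0, were 0.106 to 0.459 CPM in the rescue and 0.338 to 1.55 CPM in the truncation libraries. On simulated counts edgeR recovered 78% of changed genes for NPC-ΔZF1 against NPC-WT (16015 genes) and 87.5% for NPCs of Podxl pA (12880 genes), with 6.59% and 2.23% of calls false. The simulation changed 200 genes and gave each gene the same spread in all groups. Replicate pairs of the data differed in spread, so these rates need not hold for the real calls. Each rate covers all changed genes together, and recovery at the size of the members' fold changes was not tested.

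The members and lists were chosen with earlier results of these data known. Beside the members, the called genes of each list with the 3 largest and the smallest fold change, the 5 genes most alike in each table, genes at 0 that define a cell type, and overlapping genes were named. The values of 1 gene that this rule would name are not reported here. Neighbouring genes were chosen after their values were seen. Alternatives were DESeq2 1.42.0, RLE factors, no filter, only the groups compared, a replicate block and leaving out each library.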

Additional observations from a re-analysis of the deposited data

Results flagged for a closer look

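The effect of ΔZF1 differed between NPCs and ESCs for 6 members, by edgeR's test of the difference itself. On the log2 scale the effect in NPCs was above that in ESCs by 2.73 for Gata4, 3.00 for Gata6, 3.06 for Sox17, 3.21 for Foxa2, 3.31 for Hnf4a and 2.58 for Pdgfra, with edgeR adjusted p-values of 0.00648, 0.00572, 0.0103, 0.035, 0.00801 and 0.00418. Foxa2 rests on 8 to 9 counts per ESC group, and Hnf4a on 18 counts in NPC-WT. The Grb10 pA effect differed between NPCs and ESCs for Gata6 by −1.77 and for Pdgfra by −2.01 (edgeR adjusted p = 0.0152 and 0.0187). Pdgfra had 10 counts over the 3 ESC libraries of E14 WT.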

How the results depend on the processing

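Of 611 alternative values of called fold changes of members, 575 remained past the thresholds, 36 did not and 0 changed direction, and of 492 values of members not called, 34 changed direction and 4 passed. The 7 members called in NPC-ΔZF1 against NPC-WT were 7 in every alternative. With all libraries, direction changed only for the ΔZF1 difference between NPCs and ESCs of Sox7, to −0.0269 with DESeq2, −0.00536 with RLE factors and −0.00294 without the filter on low counts. Fitting only the groups compared gave 5 members in NPCs of Podxl pA in place of 3, the cause of which was not tested. In ESCs of Grb10 pA it gave 0 in place of 1, since Pdgfra had no value there after the filter on low counts, and without that filter the count was also 0 (edgeR adjusted p = 0.0618 for Pdgfra).

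Without 1 library each in turn, the members called were 0 in each case in ESC-ΔZF1, 3 to 6 for the ΔZF1 difference (3 without the first library of ESC-ΔZF1), 2 to 3 in NPCs of Podxl pA and of Grb10 pA, 0 to 1 in ESCs of Grb10 pA and 1 to 3 for the Grb10 pA difference. NPCs against ESCs gave 6 to 7 in the ΔZF1 rescue and E14 WT lines. A lone library was then assumed to vary like the other groups. Fold changes of members not called changed direction in some of these fits. In ESC-ΔZF1 they ran from −0.703 to 0.0417 for Gata4, −0.267 to 0.401 for Gata6, −0.484 to 0.546 for Sox17 and −0.299 to 0.359 for Pdgfra, and the ΔZF1 difference of Sox7 from −0.115 to 0.115. In ESCs of Podxl pA, Foxa2 ran from −2.78 to 1.97 and Hnf4a from −0.0758 to 0.801. In ESCs of Grb10 pA, Sox7 ran from −0.364 to 0.598, Foxa2 from −0.42 to 2.86 and Hnf4a from −0.247 to 0.418. In NPCs of Grb10 pA, Gata4 ran from −0.171 to 0.0733, Sox17 from −0.427 to 0.00698 and Foxa2 from −0.341 to 0.084. The Podxl pA difference ran from −1.4 to 3.36 for Foxa2 and −0.661 to 0.48 for Pdgfra, and the Grb10 pA difference from −3.03 to 0.25 for Foxa2 and −0.0841 to 0.583 for Hnf4a.

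Same-numbered libraries had correlations of deviations of −0.0896 to 0.132. With 2 or 3 libraries per group, these values cannot show whether same-numbered libraries were cultured or prepared together. A replicate block gave 5 in place of 6 members for the ΔZF1 difference, where Foxa2 was at 3.21 (edgeR adjusted p = 0.0641), and 2 in place of 3 in NPCs of Grb10 pA, where Pdgfra was at −0.495. The block changed no other count of members called. In ESCs of the truncation experiment Foxa2 had at most 2 counts per library.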
